A study of Caenorhabditis elegans with 2 samples.

Results

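The collagens of the nematode cuticle were examined for peaks of UNC-62 in whole larvae of Caenorhabditis elegans at the L4 stage, the last larval stage before the adult. The members were the protein-coding genes of Ensembl WBcel235 whose name is col- followed by a number, 156 of 19985 protein-coding genes, and the name alone chose them. Every animal came from strain OP602, a stable transgenic line with a GFP-FLAG tag at the C-terminus of UNC-62, with male and female animals pooled, and the sample labels name an insertion directed at unc-62. The study holds 1 group of 2 biological replicates, with sonicated chromatin precipitated and sequenced (ChIP-seq) for the places where UNC-62 sits on DNA. The labels do not say at which level, or from which promoter, the tagged protein is made, and whole animals mix the epidermis with every other tissue. Untagged worms or another stage were not analysed here, so the data show where peaks lie and how strongly they rank, not a change between conditions.

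The cuticle is an extracellular coat that the epidermis secretes anew before each moult, and collagens are its main structural proteins. Cuticle collagens are short proteins with Gly-X-Y repeats, encoded by a large family of small genes that are switched on in waves during each moulting cycle. An L4 larva is building the adult cuticle, whose collagens include the adult-specific col-19. UNC-62 is the worm member of the Meis/Homothorax class of homeodomain proteins, which bind DNA with PBC and Hox partners.

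A peak was counted for a gene where its summit, the middle of the listed peak, fell in a window reaching 2000 bp up and 500 bp down from any protein-coding transcript start of the gene. Peaks were ranked within each list by the authors' signal value, with rank 1 the strongest. The ce11 lists held 15466 peaks for replicate 1, 24524 for replicate 2, 30000 for the pooled replicates and 114 after thresholding by the irreproducible discovery rate (IDR). The first 3 lists include weak background regions by the authors' own naming, so listing alone does not mark a bound site. The replicate ranks given for a pooled site are those of the replicate peak that overlaps it by 1 bp or more, whose own summit can lie elsewhere. Read depth is unknown. Coordinates count from 1 in ce11. Ranges in brackets after a share are its 95% interval by the exact Clopper-Pearson method and hold the counting error over genes or summits, nothing else. Neighbouring genes share summits, and no test of any difference between col genes and other genes was made.

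Of the 4 collagen peaks with the best pooled rank, 3 had their summit more than 1000 bp upstream of the start that placed them, and the other lay 190 bp upstream of col-184. The sequences around these 4 summits are shown as the sites on which the results turn, with 100 bp to either side of the summit, on the plus strand of WBcel235. They lie at chrIII:10989754-10989954, chrV:13200698-13200898, chrX:13469165-13469365 and chrV:10423541-10423741. Capitals mark matches on either strand to the sequences searched. These were TGACAG, the core of Meis sites. Another was TGATNNAT, of the kind bound by Hox and PBC proteins. The third was TGATAA, of the kind bound by GATA factors. The last was GAGAGA, a simple repeat.
col-94, pooled rank 49: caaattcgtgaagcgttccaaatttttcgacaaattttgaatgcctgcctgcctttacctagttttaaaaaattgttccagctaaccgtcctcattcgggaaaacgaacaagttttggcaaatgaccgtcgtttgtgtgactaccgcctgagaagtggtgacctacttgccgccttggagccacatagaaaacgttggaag
col-159, pooled rank 87: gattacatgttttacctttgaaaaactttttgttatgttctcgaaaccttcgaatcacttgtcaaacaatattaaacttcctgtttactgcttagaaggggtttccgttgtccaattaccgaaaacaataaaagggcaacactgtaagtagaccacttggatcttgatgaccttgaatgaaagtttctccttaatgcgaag
col-183 and col-184, pooled rank 119: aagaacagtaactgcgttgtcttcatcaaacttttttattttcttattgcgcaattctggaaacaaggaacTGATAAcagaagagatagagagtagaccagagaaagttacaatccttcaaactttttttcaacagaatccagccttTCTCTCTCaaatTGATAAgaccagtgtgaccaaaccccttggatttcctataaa
col-13, pooled rank 156: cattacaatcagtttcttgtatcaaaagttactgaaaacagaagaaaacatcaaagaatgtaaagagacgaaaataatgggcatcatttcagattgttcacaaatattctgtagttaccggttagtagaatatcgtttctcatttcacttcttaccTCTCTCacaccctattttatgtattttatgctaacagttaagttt
Those of col-94 and col-159 held none of the 4 sequences. The site between col-183 and col-184 held TGATAA on both sides of the summit, with the nearer match starting 29 bp before it and the farther starting 59 bp after it. It also held overlapping GAGAGA matches on the minus strand, and the site upstream of col-13 held GAGAGA once on the minus strand. A match is a run of letters, not a shown binding site.

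Any pooled summit was found in the windows of 103 col genes, or 66.0% (58.0 to 73.4%), against 60.3% of 19829 other protein-coding genes. In replicate 1 these were 63 col genes, or 40.4% (32.6 to 48.5%), against 37.4%. In replicate 2 these were 95, or 60.9% (52.8 to 68.6%), against 52.7%. The share of col genes was higher than that of other genes in each list, and in the pooled and replicate 1 lists the background share lay within the interval of the col genes. Replicate 2 had the widest gap, with its background share just below the interval. Both replicate lists had a summit for 45 col genes, or 28.8% (21.9 to 36.6%), against 24.6% of other genes. Such a gene needs a summit of each replicate somewhere in its window, not at the same site. No list of the pooled and replicate peaks had a summit for 33 col genes, or 21.2%, against 27.3% of other genes. The pooled gap of 5.73 percentage points fell to 0.957 among genes with windows of mostly unique sequence (118 col genes), an alternative added after seeing the data. The share of col genes was 66.1% there, so the gap fell through a higher share among other genes, not a lower share among col genes. It was 2.94 with replicate 1's list alone and 3.48 with windows from 5000 bp upstream.

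**Figure D1:**
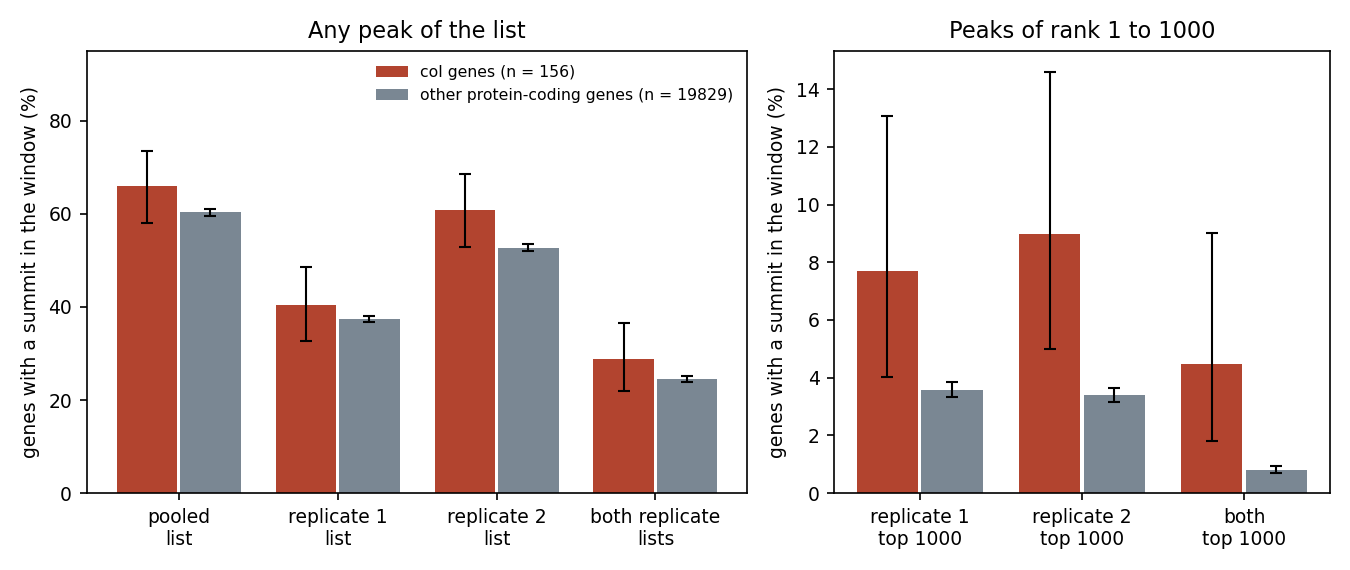
Share of genes with a UNC-62 summit in the window around a start, for all peaks of a list (left) and for peaks of rank 1 to 1000 (right), with bars for col genes and other protein-coding genes and 95% exact intervals as error bars. The left shares are close, 66.0% against 60.3% in the pooled list, and the shares for rank 1 to 1000 in both replicates are 4.49% against 0.802%.

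Among peaks of rank 1 to 1000 the share of col genes was again above that of other genes. In percentage points the gap was smaller than for all peaks in the pooled list (2.69), in replicate 2 (5.59) and in both replicates (3.69), and wider in replicate 1 (4.10). The shares themselves were lower throughout, so these gaps are not on the same scale as those for all peaks. A summit of rank 1 to 1000 lay in the windows of 12 col genes in replicate 1, or 7.69% (4.04 to 13.1%), against 3.59% of other genes. In replicate 2 it did so for 14 col genes, or 8.97% (4.99 to 14.6%), against 3.39%. Both replicates had such a summit for 7 col genes, or 4.49% (1.82 to 9.03%), against 0.802% of other genes. These 7 were col-13, col-94, col-96, col-129, col-159, col-183 and col-184, and the last pair shares its peak. The number fell to 3 with windows from 1000 bp upstream to 200 bp downstream and to 4 both with each summit given to its nearest gene and with mostly unique windows, while the share stayed above that of other genes by 1.43 to 4.13 percentage points over the 7 alternatives run for it, all added after seeing the data. In the pooled list, 10 col genes, or 6.41% (3.12 to 11.5%), had a summit of rank 1 to 1000, against 3.72% of other genes. For rank 1 to 1000 the background share lay below the interval of the col genes in replicate 1, in replicate 2 and in both replicates. In the pooled list it lay within the interval.

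The IDR list held summits in the windows of 2 col genes, col-94 and col-159, or 1.28% (0.156 to 4.55%), against 0.439% of other genes. The peak beside col-94 lay at chrIII:10989666-10990041. Its signal value was 42.0 in the pooled list (rank 49), 16.7 in replicate 1 (rank 143) and 23.2 in replicate 2 (rank 65). It was high in both replicates, but its summit was 1981 bp upstream of the col-94 start, just inside the window, and in a coding exon of dhc-4, a gene named for dynein heavy chain. Of the 31-base words of this peak, 77.7% occur once in the genome. A weaker pooled summit in another coding exon of dhc-4, 843 bp upstream of col-94, had rank 889 in the pooled list, 1277 in replicate 1 and 14767 in replicate 2. The neighbour col-93, whose start is 2264 bp from that of col-94, had its best pooled summit (rank 453) 368 bp upstream, in an intron of dhc-4. Replicate 1 ranked that site at 247, with its own summit 179 bp upstream, and replicate 2 ranked it at 1210, with its summit 457 bp upstream, and only 52.4% of the words in the whole col-93 window are unique.

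The IDR peak beside col-159 lay at chrV:13200610-13200985, with a signal value of 35.2 in the pooled list (rank 87), 16.7 in replicate 1 (rank 149) and 15.4 in replicate 2 (rank 333). Ensembl gives col-159 starts at 13202177, 13199384 and 13199317 on the minus strand. The summit at 13200798 was 1414 bp upstream of the second of these and inside an intron of the longest transcript. Counted from the start at 13202177 alone it fell outside the window, and it then belonged to no col gene. The start nearest to it was that of col-160, 1301 bp away on its downstream side. The gene col-160 shares a start with col-159, and their most upstream starts are 12 bp apart, and both genes shared a summit of pooled rank 1934, in a coding exon of col-160. That site had rank 1677 in replicate 1 and 22474 in replicate 2. They also shared an intergenic summit of pooled rank 2726, with rank 1125 in replicate 2 and no peak in replicate 1.

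The remaining members with strong peaks in both replicates were found on 4 chromosomes. The divergent neighbours col-183 and col-184 shared a peak in the intergenic sequence between them, at chrX:13469077-13469452, 190 bp upstream of col-184 and 1501 bp upstream of col-183. Its signal value was 32.2 in the pooled list (rank 119), 13.9 in replicate 1 (rank 462) and 17.9 in replicate 2 (rank 179). This was the site of best pooled rank that lay within 500 bp upstream of a collagen start. Upstream of col-13 by 1739 bp, and nearest to col-12, lay a peak of pooled rank 156, with ranks of 218 and 434 in replicates 1 and 2. In col-129 both summits were in coding exons, at 12110162 on chromosome IV (pooled rank 287, replicate ranks 329 and 633) and at 12109270 (pooled rank 563, replicate ranks 190 and 138). By these overlapping peaks the order of the col-129 sites differed between the pooled list and each replicate. The replicate 1 peak of rank 190 had its own summit outside the col-129 window. Within the window the only replicate 1 summit was that of rank 329. In col-96 a summit 154 bp downstream of the start, in a coding exon, had pooled rank 426, with ranks of 514 and 194 in the replicates. The same replicate peaks also overlapped a further pooled summit of col-96 (rank 3988) 59 bp upstream of the start. The replicate 1 peak had its own summit 62 bp upstream, beside that weaker pooled summit, and the replicate 2 peak had its summit 182 bp downstream. The stronger pooled site held TGACAG from 21 to 16 bp before its summit on the plus strand, and of the 11 collagen summits of pooled rank up to 1000 it alone held TGACAG within 100 bp. The gene with the next pooled rank before it, col-62, had its best summit (pooled rank 403, replicate ranks 669 and 2041) 655 bp upstream and nearest to C15A11.7.

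**Figure D2:**
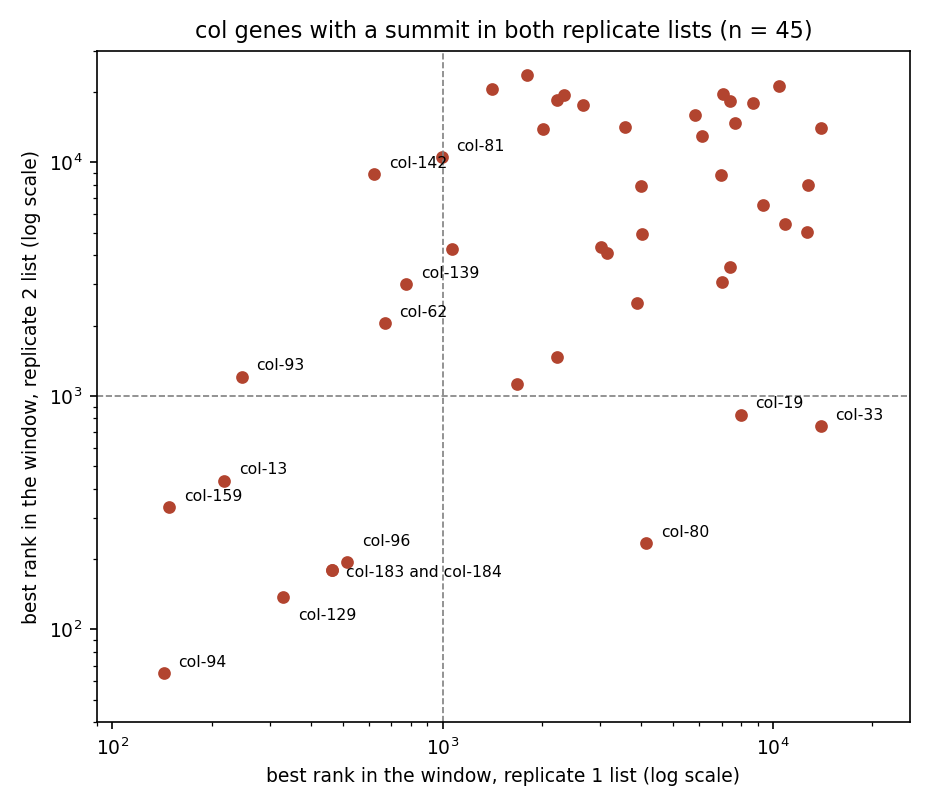
Best rank of a summit in the window of each of the 45 col genes with a summit in both replicate lists, replicate 1 on the x axis and replicate 2 on the y axis, both on log scales, with dashed lines at rank 1000. The 7 genes below 1000 on both axes are led by col-94 (143 and 65), while col-80 (4145 and 235) and col-81 (996 and 10553) lie far from the diagonal. The best summits of the replicates need not lie at the same place in the window. They lie apart at col-80 and col-81, and also at other genes, such as col-19 (1855 bp upstream and 209 bp downstream) and col-38 (169 and 1940 bp upstream).

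At some members the pooled summit of best rank overlapped a peak of 1 replicate only. The summit of col-80 at pooled rank 625, which is 636 bp upstream of its start, overlapped the peak of rank 235 in replicate 2 and no peak of replicate 1, which had its col-80 summit (rank 4145) 1695 bp upstream. A further col-80 summit of pooled rank 1177, in its coding exon, is also in the window of bli-1, which encodes a collagen of the struts of the adult cuticle. The reverse was seen at col-38, where a summit of pooled rank 1299, 169 bp upstream, had rank 1411 in replicate 1 and overlapped no peak of replicate 2, whose col-38 summit (rank 20539) was 1940 bp upstream. That summit is also in the window of rpl-5, a ribosomal protein gene. The summit of col-141 at pooled rank 2161 had rank 1430 in replicate 2 and none in replicate 1, and its nearest gene was dmsr-15. Of the sites with a peak in both replicates, that of col-139 (pooled rank 1473) had ranks of 776 and 3002 and that of col-81 (pooled rank 1567) ranks of 996 and 11154. The site of col-122 (pooled rank 1612) had ranks of 9150 and 3071. That of col-178 (pooled rank 1649) had 3865 and 1466, that of col-119 (pooled rank 2176) 1071 and 4241, and that of col-20 (pooled rank 2204) 7420 and 3574. The replicates ordered these weaker sites differently.

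Well-studied members showed no common pattern. At col-19, the adult collagen gene that the heterochronic factor LIN-29 activates, the pooled summit of rank 1646 lay 388 bp downstream of the start in a coding exon. That site had rank 11157 in replicate 1 and 830 in replicate 2. The gene col-17 had its pooled summit (rank 7284) 568 bp upstream, a replicate 1 summit of rank 1627 at 1369 bp upstream, and none in replicate 2. For col-7 only replicate 2 gave a summit, of rank 16849. No summit of any list lay in the window of col-10. For col-99, which encodes a membrane-spanning collagen rather than a secreted cuticle collagen, the pooled list gave a summit of rank 14459, 106 bp downstream of the start, and neither replicate list gave one.

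Pooled summits at collagen genes were spread over the whole list. The best pooled rank per col gene had a median of 10510 over the 103 genes with a summit, against 11612 over the 11956 other genes with a summit. In replicate 1 the medians were 3893 over 63 col genes and 6530 over 7425 other genes, and in replicate 2 they were 8839 over 95 and 9933 over 10453. Col genes thus had the better median in each list, by the widest margin in replicate 1. The 157 distinct pooled summits in collagen windows were also in the window of a gene outside the family in 50 cases, and 121 had a collagen start as the nearest. Overlap with a peak of both replicates was found for 49 of them, or 31.2% (24.1 to 39.1%), against 20.7% of the 14825 pooled summits that lay in windows of other genes alone. Among summits of pooled rank 1 to 5000 these shares were 72.2% of 36 (54.8 to 85.8%) and 62.2% of 2651. Among the weaker ones they were 19% of 121 (12.4 to 27.1%) and 11.6% of 12174. Neighbouring pooled summits that overlap the same replicate peaks, as at col-96 and col-81, are each counted, which the intervals do not allow for.

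Around collagen starts the pooled summits were most frequent from 500 bp upstream to the start, a pattern that the replicate lists did not both show. This interval held 49 of the 165 pairs of a col gene and a summit, or 29.7% (22.8 to 37.3%), against 24.0% for other genes. Downstream of the start lay 33, or 20% (14.2 to 26.9%), against 21.7%, and the downstream 500 bp are 20% of the window. In replicate 1 the upstream 500 bp held 27.0% of the pairs (18.1 to 37.4%), against 24.3% for other genes, and in replicate 2 27.2% (20.2 to 35.2%), against 24.5%, so both background shares lay within the intervals. Replicate 1 had 7 summits from 500 to 250 bp upstream and 16 in the last 250 bp, and the fullest bin of replicate 2 was the first 250 bp downstream, with 25. Another bin above its neighbours, from 1750 to 1500 bp upstream, held 21 pooled pairs, or 13.5 per 100 genes, against 8.15 per 100 other genes. In replicate 2 it held 18 pairs, or 11.5 per 100 genes against 6.90. In replicate 1 it held 9, or 5.77 against 4.21, and did not stand above its neighbours, which held 10 and 7. Each bin holds few summits. Of the 157 distinct summits, 61 were intergenic, 43 in coding exons, 36 in introns, 9 in non-coding genes and 8 in untranslated exons. Of those in coding exons, 25 lay in a col gene, which need not be the gene whose window held the summit. The summit of pooled rank 1510, in the window of col-80, lay in a coding exon of col-39. Coding exons of any gene thus held 27.4% (20.6 to 35.1%), against 24.9% of the other genes' summits.

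**Figure D3:**
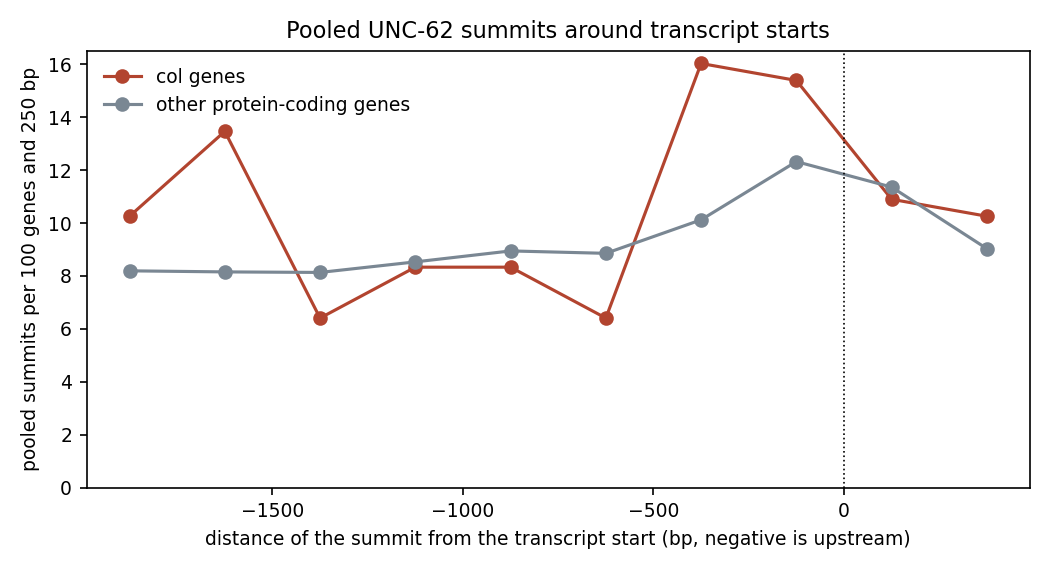
Pooled summits per 100 genes in bins of 250 bp, against the distance of the summit from the transcript start in bp (negative is upstream), for 156 col genes and 19829 other protein-coding genes. The bins from 500 bp upstream to the start hold 16 and 15.4 summits per 100 col genes, against 10.1 and 12.3 per 100 other genes.

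The family is spread over 6 chromosomes, and the share with a pooled summit varied among them. It was 83.3% of 12 genes on III, 75% of 24 on II, 70.7% of 41 on IV, 66.7% of 27 on X, 61.3% of 31 on V and 42.9% of 21 on I. The intervals of III (51.6 to 97.9%) and I (21.8 to 66.0%), at the ends of this order, overlap. On chromosome I the col genes were below the other genes, with 42.9% against 61.3%, and in replicate 1 only 3 of the 21 had a summit. On every other chromosome they were above the other genes, with 66.7% against 63.4% on X as the closest values. Of the col genes, 50 had another collagen start within 5000 bp. Of these, 70.0% (55.4 to 82.1%) had a pooled summit, against 64.2% (54.3 to 73.2%) of the other 106, and 8 pooled summits lay in the windows of a pair of collagen genes each.

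**Figure D4:**
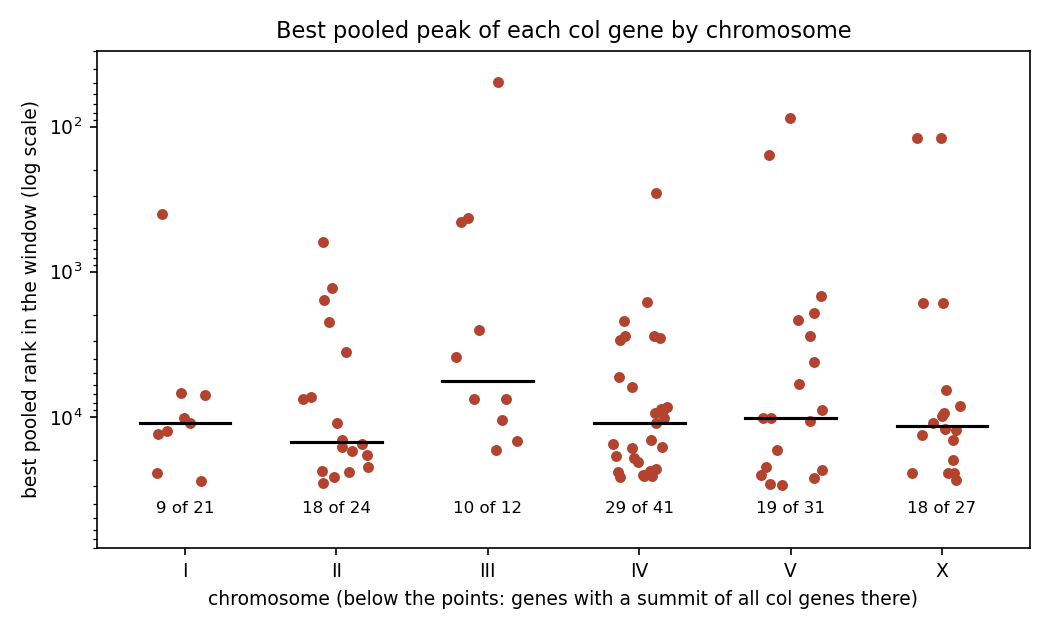
Best pooled rank in the window of each col gene with a pooled summit, by chromosome, on a log scale with the strongest at the top, lines at the medians and counts of genes with a summit of all col genes under each column. The points of rank below 200 are on III, V and X, and 9 of 21 genes on chromosome I have a point.

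Collagen genes differed from other genes in their starts, window length, base composition and repeated sequence. A single annotated start was found for 87.2% of col genes and 73.6% of other genes, so the windows of col genes were shorter on average, 2585 against 2893 bp. Per kb of window, col genes had 0.409 pooled summits and other genes 0.324. With only the most upstream start of each gene, the gap in the share with a pooled summit was 8.19 percentage points in place of 5.73. The windows of col genes had a median GC content of 37.2%, against 35.3%. Less than 90% unique 31-base words were found in the windows of 38 col genes, or 24.4%, against 17.9% of other genes. The lowest were col-117 at 31.3% and col-3 at 31.4%, a pair with starts 588 bp apart that shared a pooled summit of rank 2766, found in replicate 2 at rank 450 and not in replicate 1. The words of that peak itself are all unique. How reads that map to several places were handled before peak calling is not stated in the labels, so peaks at paralogs in repeated sequence are uncertain. The part of GC content and repeated sequence in these results was not tested.

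Sequence around collagen starts was compared with that of all protein-coding genes, over 250 bp before to 50 bp after the most upstream start. TGACAG, searched on both strands, was present in 30 of 156 collagen promoters, or 19.2% (13.4 to 26.3%), against 9.66% of 19985 promoters. One match counts for both col-159 and col-160, whose promoters overlap. These 30 genes had a pooled summit in 53.3% (34.3 to 71.7%) of cases and the other 126 col genes in 69.0% (60.2 to 77.0%). Both replicates had a summit for 26.7% and 29.4% of them. Genes with the Meis core in the promoter thus did not have peaks more often. The other sequences were near the share of all promoters, with TGATNNAT in 20.5% against 23.6%, TGATAA in 29.5% against 30.2% and GAGAGA in 26.9% (20.1 to 34.6%) against 21.8%. Median GC content was 38% in collagen promoters and 34.3% in all promoters.

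The upstream 250 bp are shown for 3 members with TGACAG in the promoter and a pooled summit within 250 bp of any start of the gene. These sequences run 5' to 3' on the strand of the gene and end 1 bp before its most upstream start. The match is in capitals (as CTGTCA where it is on the other strand). The sequences are at chrV:4653972-4654221 on the minus strand for col-139 (pooled rank 1473), chrV:13202190-13202439 on the minus strand for col-160 (pooled rank 1934) and chrII:10706951-10707200 on the plus strand for col-80 (pooled rank 1177). These 3 pooled summits lay downstream of the start, in a coding exon of the gene, and so outside the sequence shown. None of them had TGACAG within 100 bp. The col-80 site overlapped no peak of replicate 1. In replicates 1 and 2 the col-139 site had ranks of 776 and 3002, and the col-160 site 1677 and 22474.
col-139: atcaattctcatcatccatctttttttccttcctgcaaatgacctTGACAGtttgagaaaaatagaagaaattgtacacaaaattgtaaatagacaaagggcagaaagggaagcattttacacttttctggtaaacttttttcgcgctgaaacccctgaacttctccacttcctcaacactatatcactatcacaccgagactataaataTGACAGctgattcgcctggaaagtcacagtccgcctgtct
col-160: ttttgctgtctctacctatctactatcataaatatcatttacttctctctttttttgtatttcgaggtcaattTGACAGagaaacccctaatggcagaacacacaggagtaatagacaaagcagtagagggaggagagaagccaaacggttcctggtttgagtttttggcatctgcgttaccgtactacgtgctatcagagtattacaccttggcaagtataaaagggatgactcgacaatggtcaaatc
col-80: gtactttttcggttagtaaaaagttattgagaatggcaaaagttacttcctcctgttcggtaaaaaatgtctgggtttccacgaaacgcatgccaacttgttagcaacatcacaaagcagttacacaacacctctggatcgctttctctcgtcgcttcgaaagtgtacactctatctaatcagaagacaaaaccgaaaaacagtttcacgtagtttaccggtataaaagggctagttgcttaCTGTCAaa
The col-139 promoter holds TGACAG at 205 and 40 bp, that of col-160 at 177 bp and that of col-80, reversed, at 8 bp upstream of the start, counted to the first base of the match. The sequence TATAAA near the end of such promoters was searched after these sequences were seen. It was present on the gene's strand from 16 to 50 bp upstream of the start in 62 of 156 collagen promoters, or 39.7% (32.0 to 47.9%), against 7.57% of all promoters. Anywhere in the promoter, on either strand, the shares were 66.0% and 38%. A pooled summit was found for 58.1% of these 62 genes and for 71.3% of the other 94 col genes, and summits in both replicates for 30.6% and 27.7%. Annotated starts of worm genes can be the splice site of a trans-spliced leader rather than the start of transcription.

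Sequence near pooled summits of the collagen genes was like that near the summits of other genes. Within 100 bp of the 157 summits TGACAG was present at 13, or 8.28% (4.48 to 13.7%), against 7.22% of 14825 summits in windows of other genes alone. TGATNNAT was present at 13.4% against 16.3%, TGATAA at 19.7% against 19.2% and GAGAGA at 10.8% against 14.4%. The shares for the other genes lay within the intervals of the collagen summits for these 4 sequences. Median GC content was 37.3% around collagen summits and 35.8% around the others.

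Other genes of the cuticle, the epidermis and basement membranes were set beside the family, from lists of well-known names chosen with earlier results of these data known. None of them had an IDR summit in the window. Of 20 collagens named for the body shape of their mutants, such as dpy, rol, sqt and bli genes, 12 had a pooled summit (60.0%) and 3 had a summit in both replicates (15%). The best was bli-1, through the summit of pooled rank 1177 named above. Of 14 genes for collagen modification and processing, 7 had a pooled summit and 6 a summit in both replicates (42.9%). The best was dpy-11, a thioredoxin-like protein needed for body shape, with pooled rank 4572. Among 35 cuticlin genes, which encode zona pellucida domain proteins of the cuticle, 21 had a pooled summit (60.0%) and 9 a summit in both replicates (25.7%), with cutl-20 best at pooled rank 1770. Of 15 epidermal and moulting transcription factors 13 had a pooled summit (86.7%) but 2 had one in both replicates (13.3%). Best was nhr-25, a nuclear receptor of moulting, with pooled rank 1871, 1907 bp upstream, replicate 1 rank 1334 and no summit in replicate 2. Among 3 basement membrane collagens, 2 had a pooled summit, with cle-1 at rank 2824. Against 60.3% and 24.6% of other protein-coding genes, these lists were small, and none had a top pooled rank like those of col-94 or col-159.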

How the data were processed

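The data were narrowPeak lists of UNC-62 ChIP-seq from whole L4 larvae, 1 group of 2 biological replicates. Per the deposited readme texts, peaks and weak background regions were listed for either replicate and for the pooled pair, against a control alignment that was not analysed here, and IDR thresholding of these gave the optimal list. The signal value and the summit offset are the authors' deposited columns. Not given in the sources used here: how the signal was scaled, which aligner and caller ran, and where IDR was thresholded. Read depth is unknown, and the intervals hold counting error over genes or summits, not the variation between the 2 replicates.

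Only the ce11 lists were used, since no ce10 annotation was at hand. Genes and starts came from Ensembl release 115 (WBcel235), which has ce11 coordinates, and sequence from the RefSeq assembly of WBcel235. Tied signals shared the lowest rank. Unique sequence means the share of 31-base words that occur once in the genome on either strand. Peaks overlapped where they shared 1 bp or more. The assignment of summits to windows was tested on simulated data.

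The members, lists and thresholds were chosen with earlier results of these data known. Named were the col genes with an IDR summit, the 20 of best pooled rank, the 10 of best rank in both replicates among those in the top 1000 of either, and col-7, col-10, col-17, col-19 and col-99. Other genes in the sentences were named after their values were seen. No test was made, because there is 1 group. Replicates are separate biological samples per the labels. Alternatives covered windows, starts, overlap, signal, nearest genes, chromosome X, list length, unique sequence and each replicate alone. Tables were made with pandas 2.3.3 on Python 3.11.15 with NumPy 2.4.6, intervals with SciPy 1.17.1 and plots with matplotlib 3.10.9.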

Additional observations from a re-analysis of the deposited data

How the results depend on the processing

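Of 74 recomputed values, 18 belong to alternatives chosen after seeing the data, those on unique sequence and those for rank 1 to 1000 in both replicates. No difference between col genes and other genes changed sign. The difference ranged from 0.957 to 8.19 percentage points for a pooled summit, 2.55 to 7.05 for a summit in both replicates and 1.43 to 4.13 for a summit of rank 1 to 1000 in both. The share of col genes with a pooled summit was 44.9% from 1000 bp upstream to 200 bp downstream, 85.9% from 5000 bp upstream, 51.3% with nearest genes only, 42.3% with peaks at or above the median signal and 40.4 to 60.9% with either replicate left out (the other's list in place of the pooled one), changes that follow from narrower or wider windows, shorter lists and, with nearest genes only, summits no longer given to every gene in reach. The share with a summit in both replicates was 16%, 52.6%, 19.2% and 15.4% under the first 4 of these. Col genes with an IDR summit, 2 in all, numbered 0 from 1000 bp upstream, 1 with nearest genes only, 1 with a single start per gene, 1 above the median signal and 3 from 5000 bp upstream. IDR needs both replicates, so leaving one out was replaced by the 114 top peaks of the other replicate's list, which gave 0 to 1. Col genes with a summit of rank 1 to 1000 in both replicates, 7 in all, numbered 3 from 1000 bp upstream, 4 with nearest genes only and 4 with mostly unique windows. The median best rank was 6736.5 above the median signal and 3893 to 8839 with either replicate left out, in shorter lists. The share of summits downstream of the start, 20%, ranged from 19 to 25.2%. No paired analysis was possible because there is 1 group. Depth limits all counts to the peaks listed.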

Other observations

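Some collagen genes had a strong peak in 1 replicate and a weak one or none in the other, and they were named after their values were seen. In replicate 2 col-73 had a summit of rank 581 and signal value 13.8, with none in replicate 1 and a best pooled rank of 18232. That replicate 2 summit lay 1780 bp upstream of col-73. The pooled site there was in a coding exon of F11G11.15, its nearest gene, 55 bp from the start of that gene. At col-33 the best rank was 744 in replicate 2, at 1973 bp upstream, and 13999 in replicate 1, at another place 78 bp downstream. The upstream site of col-33 overlapped no peak of replicate 1. At col-75 the best rank was 989 in replicate 2, with none in replicate 1. The opposite held at col-142, with rank 622 in replicate 1 and 8867 in replicate 2. Over the whole family, 18 genes had a summit in replicate 1 and not in replicate 2, or 11.5% against 12.9% of other genes, and 50 had one in replicate 2 and not in replicate 1, or 32.1% against 28.1%. Replicate 2 has the longer list.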
